A study of Mus musculus with 6 samples.

Results

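Immediate early genes are switched on within minutes of a stimulus from factors already present in the cell, and their transcripts are short-lived. The 10 described here, of 54532 genes in the table, were chosen by name: Fos, Fosb, Jun, Junb and Atf3, which encode basic leucine zipper proteins of the AP-1 group, the zinc finger factor Egr1, the nuclear receptor Nr4a1, the response genes Ier2 and Ier3, and Dusp1, a phosphatase that switches off MAP kinases. Each name matched 1 protein-coding row. The RNA came from the inguinal fat pad, a white depot under the skin, of Cdo1AKO mice, in which Cdo1 (cysteine dioxygenase 1) was deleted in adipose tissue, and of Control mice carrying floxed Cdo1 alleles, whose genotype field reads WT. There were 3 libraries per group. Both groups were put on a high-fat diet at 8 weeks of age and kept on it for 15 weeks. The promoter that drives the deletion, the sex of the mice and the way the tissue was collected are not given in the sources used here, and no label says whether a library came from 1 animal or from a pool.

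In resting cells these genes stand ready with open promoters. Growth factors, beta-adrenergic signals, stretch and injury act through MAP kinases on serum response factor and its ELK partners, and through cyclic AMP on CREB, which binds cAMP response elements. FOS and JUN proteins then pair on DNA as AP-1. Because the response is so fast, cutting, warming or delay while a tissue is collected can also raise these transcripts, and for that reason each library is given separately here.

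The libraries held 16275184 to 19205804 counts. The labelled tissue was checked with Adipoq, the adiponectin gene of adipocytes, which had 1492, 2801 and 1584 CPM (counts scaled for library size, with TMM factors) in Cdo1AKO 1 to 3, against 3077, 2171 and 2604 CPM in Control 1 to 3. The targeted gene Cdo1 had 123, 392 and 134 CPM in Cdo1AKO 1 to 3, against 887, 432 and 631 CPM in Control 1 to 3. Cdo1AKO 2 thus lay close to Control 2, and Cdo1 did not pass the edgeR test (log2 fold change -1.59 ± 0.53 SE, adjusted p = 0.416). Its edgeR adjusted p was 0.0256 with a term for lymph node content (log2 fold change -1.76), within a range of 0.00345 to 0.937 over the 17 alternative settings. Libraries differed in lymph node content: over 15 markers of B cells and lymph node stroma the median was 0.386 CPM in Cdo1AKO 2 and 0.0614 CPM in Control 1, and 51.6 to 98.6 CPM in the other 4. Glycam1, Ccl19, Ccl21a and Pax5 had no count in at least 1 library. The chi-square per gene, which is near 1 where libraries differ by sampling alone, was 5.63 for Cdo1AKO 1 with Cdo1AKO 3, 203 and 194 for Cdo1AKO 2 with them, and 23 to 80.2 among Control libraries. Results are therefore also given without Cdo1AKO 2 and within the 4 libraries with lymph node transcripts.

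The 10 genes differed in the libraries in which they were high, and some showed both of the following patterns. Fos, Fosb, Egr1, Jun, Dusp1 and Atf3 had their highest value of all 6 libraries in Cdo1AKO 2, as did Nr4a1 by a small margin. Egr1, Atf3, Nr4a1, Ier2 and Junb stood higher in all 3 Cdo1AKO libraries than in every Control library, as did 8.87% of tested genes. Nr4a1 had nearly the same level in each Cdo1AKO library. Ier3 was the 1 member that stood lower in all 3, as did 9.73% of tested genes. With all 6 libraries, 0 of the 10 passed edgeR's quasi-likelihood test at adjusted p under 0.05, as did 0% of the 16623 genes tested. By DESeq2, 2 of the 10 passed, Ier2 and Nr4a1, where 1.55% of tested genes were called and 0.536% on the higher side, and by limma-voom 0 passed.

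**Figure D1:**
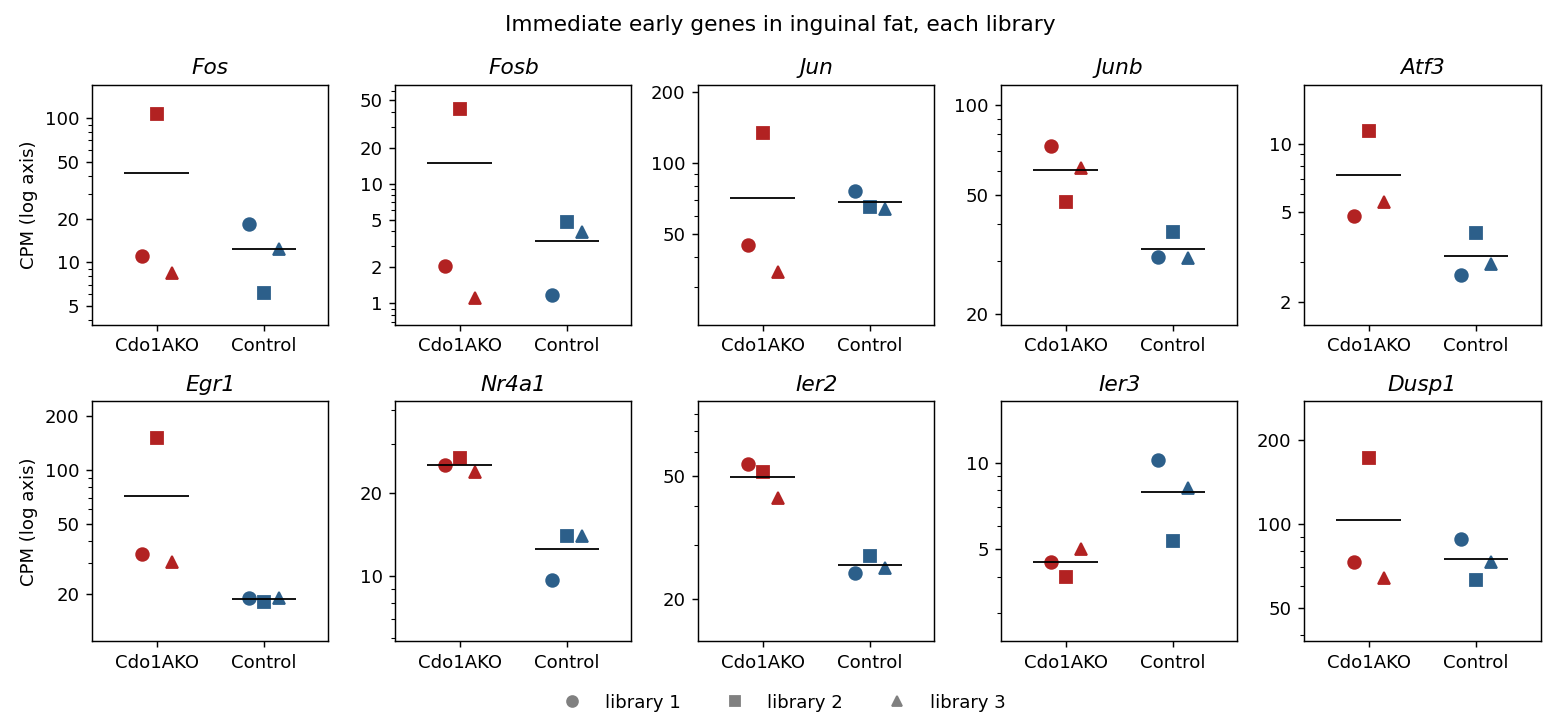
CPM of the 10 immediate early genes in each library, on log axes that differ between genes, with Cdo1AKO on the left and Control on the right of each panel; symbols give the library number and bars the group mean. Cdo1AKO 2 is set apart for Fos at 106 CPM and Fosb at 41.9 CPM, while Nr4a1 and Ier2 show both groups closed up and separate.

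The upstream DNA of these genes is shown because CREB is known to act there and because it can be set beside the libraries in which each gene was high. Windows from RefSeq (build GRCm38.p6, the same assembly as the files' mm10) were used for 8 of the 10 members, and those of Egr1 and Ier2 were not analysed here. The 250 bases before the RefSeq start are printed 5′ to 3′ on the gene's strand for some members, all of which held the core described below. They are Fos and Fosb, which were furthest raised in Cdo1AKO 2, and Dusp1, whose window alone held the full cAMP response element. Junb and Nr4a1, which were higher in every Cdo1AKO library, are also printed. Capitals mark the cAMP response element TGACGTCA and its core TGACG, read on either strand.
Fos: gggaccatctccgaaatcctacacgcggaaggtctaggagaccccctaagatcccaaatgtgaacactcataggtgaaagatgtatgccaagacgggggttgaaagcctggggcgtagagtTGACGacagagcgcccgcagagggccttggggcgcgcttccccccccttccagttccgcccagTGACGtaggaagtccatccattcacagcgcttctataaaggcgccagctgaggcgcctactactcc
Fosb: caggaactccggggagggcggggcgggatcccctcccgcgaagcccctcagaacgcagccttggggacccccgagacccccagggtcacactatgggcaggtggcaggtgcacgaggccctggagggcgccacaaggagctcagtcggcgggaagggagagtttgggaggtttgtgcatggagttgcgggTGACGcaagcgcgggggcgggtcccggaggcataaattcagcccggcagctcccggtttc
Dusp1: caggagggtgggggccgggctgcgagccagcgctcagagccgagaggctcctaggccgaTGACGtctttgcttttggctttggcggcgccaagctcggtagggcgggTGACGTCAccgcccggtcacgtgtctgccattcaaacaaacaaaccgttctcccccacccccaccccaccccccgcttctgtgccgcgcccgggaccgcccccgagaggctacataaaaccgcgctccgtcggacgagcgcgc
Junb: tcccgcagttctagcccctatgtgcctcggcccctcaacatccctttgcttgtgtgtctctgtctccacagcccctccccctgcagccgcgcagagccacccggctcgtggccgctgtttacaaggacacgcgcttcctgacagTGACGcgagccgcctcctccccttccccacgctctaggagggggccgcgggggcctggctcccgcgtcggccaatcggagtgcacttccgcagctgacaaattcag
Nr4a1: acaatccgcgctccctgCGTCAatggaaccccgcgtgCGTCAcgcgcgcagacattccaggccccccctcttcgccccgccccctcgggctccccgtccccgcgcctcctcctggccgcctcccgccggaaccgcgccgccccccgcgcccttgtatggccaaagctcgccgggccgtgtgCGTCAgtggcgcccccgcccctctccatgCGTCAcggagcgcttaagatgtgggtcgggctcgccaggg
These windows lie at chr12:85473640-85473889 on the plus strand for Fos, chr7:19310046-19310295 on the minus strand for Fosb, chr17:26508473-26508722 on the minus strand for Dusp1, chr8:84978749-84978998 on the minus strand for Junb and chr15:101266596-101266845 on the plus strand for Nr4a1. The RefSeq starts used for Nr4a1 and Atf3 lie inside the spans that the files list for these genes, downstream of the listed starts. Their windows are therefore not the DNA before the listed starts. The windows of Fosb, Dusp1 and Ier3 begin before the listed start and end inside the listed span. The core was present in 6 of the 8 windows, all but those of Jun and Ier3. It was in 17.8% of the 32851 windows of the same length in the table, which covers genes of every kind. In Fos the nearer core began 66 bases before the start, and in Fosb it began 60 bases before. Nr4a1 held 4 cores and Junb 1. The full element TGACGTCA, which contains the core on both strands, was found in Dusp1, 143 bases before the start, and in 1.55% of all windows. The AP-1 site TGACTCA, on either strand, was in 0 of the 8 windows and 4.46% of all. The related site TGACATCA, on either strand, was in 1, that of Jun, and in 2.93% of all. The CArG box that serum response factor binds was matched in 0 of the 8 and in 1.47% of all. DNA beyond these 250 bases was not searched and Egr1 and Ier2 were left out, so a 0 does not show that a gene lacks the site. A match describes letters and no binding was measured, and genes of both library patterns held the core.

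Fos (ENSMUSG00000021250, mm10 chr12:85473890-85477273, plus strand) pairs with JUN proteins and is the best known gene of the class. It had 11.1, 106 and 8.40 CPM in Cdo1AKO 1, 2 and 3, against 18.5, 6.15 and 12.3 CPM in Control 1, 2 and 3. Cdo1AKO 2 stood alone, and the other Cdo1AKO libraries lay within the range of the Control libraries. The log2 fold change was 1.77 ± 1.04 (SE, n = 3 per group; edgeR adjusted p = 0.608). Without Cdo1AKO 2 it turned to -0.33 ± 0.47 (edgeR adjusted p = 0.661).

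Fosb (ENSMUSG00000003545, mm10 chr7:19302696-19310051, minus strand), a close relative of Fos, showed the widest gap. Its counts were 41, 652 and 20 in Cdo1AKO 1 to 3, against 19, 90 and 73 in Control 1 to 3, which is 2.05, 41.9 and 1.10 CPM against 1.17, 4.81 and 3.91 CPM. Counting error alone places the 20 counts of Cdo1AKO 3 between 12.2 and 30.9 and the 19 counts of Control 1 between 11.4 and 29.7 (exact Poisson 95% intervals), so these libraries cannot be told apart at this depth. The log2 fold change was 2.18 ± 1.40 (SE; edgeR adjusted p = 0.637), and without Cdo1AKO 2 it turned to -1.07 ± 0.68 (edgeR adjusted p = 0.345). The authors' deposited table gives Fosb no p-value.

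Jun (ENSMUSG00000052684, mm10 chr4:95049034-95052222, minus strand) encodes the founding partner of FOS in AP-1. It had 45.0, 133 and 34.7 CPM in Cdo1AKO 1, 2 and 3, against 75.9, 65.4 and 64.0 CPM in Control 1, 2 and 3. Cdo1AKO 2 lay above every Control library and Cdo1AKO 1 and 3 lay below every one of them. The mean difference was near 0 (log2 fold change 0.05 ± 0.50 SE, edgeR adjusted p = 0.977), and without Cdo1AKO 2 it was -0.78 ± 0.16 (SE; edgeR adjusted p = 0.0892).

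Dusp1 (ENSMUSG00000024190, mm10 chr17:26505590-26508519, minus strand) removes phosphate from p38, JNK and ERK and so ends the signal that induces the class. It had 73.2, 172 and 63.9 CPM in Cdo1AKO 1, 2 and 3, against 88.0, 63.1 and 73.0 CPM in Control 1, 2 and 3. As for Fos, 1 library stood above the rest and the others overlapped. Its log2 fold change was 0.46 ± 0.40 (SE; edgeR adjusted p = 0.709) with all libraries and -0.12 ± 0.16 (SE; edgeR adjusted p = 0.645) without Cdo1AKO 2.

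Egr1 (ENSMUSG00000038418, mm10 chr18:34859823-34864984, plus strand), a zinc finger factor that is also induced by serum and insulin, had 33.8, 151 and 30.2 CPM in Cdo1AKO 1, 2 and 3, against 19.1, 18.2 and 19.2 CPM in Control 1, 2 and 3. All Cdo1AKO libraries lay above all Control libraries, which were close together (18.8 ± 0.57 CPM, SD, n = 3). Its log2 fold change was 1.93 ± 0.65 (SE; edgeR adjusted p = 0.416). It was smaller without Cdo1AKO 2, at 0.77 ± 0.11 (SE, edgeR adjusted p = 0.0736).

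Atf3 (ENSMUSG00000026628, mm10 chr1:191170296-191218039, minus strand), a stress-induced AP-1 factor that mostly represses, was low throughout. It had 4.80, 11.4 and 5.54 CPM in Cdo1AKO 1, 2 and 3, against 2.64, 4.01 and 2.95 CPM in Control 1, 2 and 3. The groups did not overlap, and the gap between Cdo1AKO 1 and Control 2 was small. Its log2 fold change was 1.17 ± 0.40 (SE; edgeR adjusted p = 0.419), and 0.69 ± 0.27 (SE; edgeR adjusted p = 0.178) without Cdo1AKO 2.

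Nr4a1 (ENSMUSG00000023034, mm10 chr15:101254269-101274795, plus strand), an orphan nuclear receptor induced by beta-adrenergic signals, had 25.2, 26.8 and 23.8 CPM in Cdo1AKO 1, 2 and 3, against 9.69, 14 and 14 CPM in Control 1, 2 and 3. The mean was 25.3 ± 1.5 CPM in Cdo1AKO and 12.6 ± 2.47 CPM in Control (SD, n = 3 each), so the difference exceeded the spread within either group. Across the groups the log2 fold change was 1.01 ± 0.20 (SE; edgeR adjusted p = 0.271), and it was 0.97 ± 0.20 without Cdo1AKO 2. DESeq2 called it (adjusted p = 0.00763), and the authors' deposited table has log2 fold change 1.01 and adjusted p = 0.00747.

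Ier2 (ENSMUSG00000053560, mm10 chr8:84661331-84662852, minus strand), a small nuclear response protein, had 54.7, 51.7 and 42.4 CPM in Cdo1AKO 1, 2 and 3, against 24.2, 27.6 and 25.1 CPM in Control 1, 2 and 3. Its mean was 49.6 ± 6.44 CPM in Cdo1AKO and 25.6 ± 1.71 CPM in Control (SD, n = 3 each). The log2 fold change of 0.95 ± 0.15 (SE; edgeR adjusted p = 0.230) had the smallest p of the 10, and it was 0.92 ± 0.15 without Cdo1AKO 2. DESeq2 gave adjusted p = 0.00222, and the authors' deposited table has log2 fold change 0.95 and adjusted p = 0.00217. The authors' deposited table calls 1% of the 27473 genes it gives an unadjusted p-value, and 0.346% on the higher side. Over the 17 alternative settings the adjusted p ran from 0.00222 to 0.937 for Ier2 and from 0.00763 to 0.937 for Nr4a1.

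Junb (ENSMUSG00000052837, mm10 chr8:84974484-84978718, minus strand), which pairs with FOS proteins and often opposes JUN, had 73.0, 47.3 and 61.6 CPM in Cdo1AKO 1, 2 and 3, against 31.0, 37.7 and 30.7 CPM in Control 1, 2 and 3. Here Cdo1AKO 2 was the lowest of its group, the reverse of its place for Fos, Fosb and Jun. The log2 fold change was 0.87 ± 0.20 (SE; edgeR adjusted p = 0.340) and 1.02 ± 0.14 (SE; edgeR adjusted p = 0.0719) without Cdo1AKO 2. The authors' deposited table has adjusted p = 0.0525. Ier2 and Junb lie near each other on chromosome 8 (mm10, 84661331 to 84662852 and 84974484 to 84978718, both on the minus strand).

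Ier3 (ENSMUSG00000003541, mm10 chr17:35821684-35822923, plus strand), an early response gene of cell survival, had 4.50, 3.99 and 5 CPM in Cdo1AKO 1, 2 and 3, against 10.2, 5.35 and 8.15 CPM in Control 1, 2 and 3. It stood lower in all 3 Cdo1AKO libraries, though Cdo1AKO 3 and Control 2 were close. Its log2 fold change was -0.81 ± 0.29 (SE; edgeR adjusted p = 0.431). When scaled by library totals alone, its groups overlapped.

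**Figure D2:**
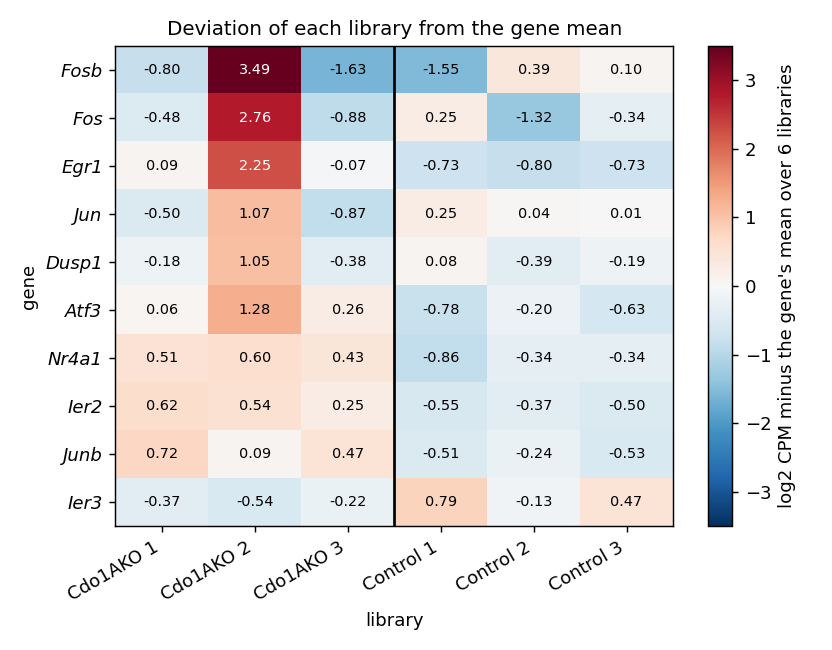
log2 CPM of each member in each library, as the difference from the gene's mean over the 6 libraries, with rows ordered by pattern and the line separating Cdo1AKO from Control. The Cdo1AKO 2 column runs from 3.49 for Fosb to -0.54 for Ier3, and Nr4a1, Ier2 and Junb are above 0 in each Cdo1AKO column.

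Counted together, 9 of the 10 had a positive log2 fold change, with a median of 0.98, against a median of 0.06 over all tested genes, of which 56.0% were positive. At an unadjusted p under 0.05 by edgeR 6 differed, where 10.4% of tested genes did: 5 were higher, where 4.66% of tested genes were, and 1 was lower, where 5.71% were. The groups did not overlap in CPM for 5 higher members (Egr1, Atf3, Nr4a1, Ier2 and Junb), as for 8.87% of tested genes, and for 1 lower member (Ier3), as for 9.73%, or 18.6% in either direction. Groups that are apart in all 6 libraries stay apart when a library is left out, save for small changes in scaling. The separation of those 5 without Cdo1AKO 2 was therefore fixed in advance, where 28.3% of tested genes were apart on the higher side. Jun joined Ier3 on the lower side, as for 26.5%. In that fit 5 members had positive and 5 negative fold changes, with a median of 0.28. Over the 17 alternative settings the adjusted p ran from 0.348 to 0.984 for Fos, from 0.398 to 0.984 for Dusp1, from 0.141 to 0.938 for Atf3 and from 0.159 to 0.960 for Ier3.

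**Figure D3:**
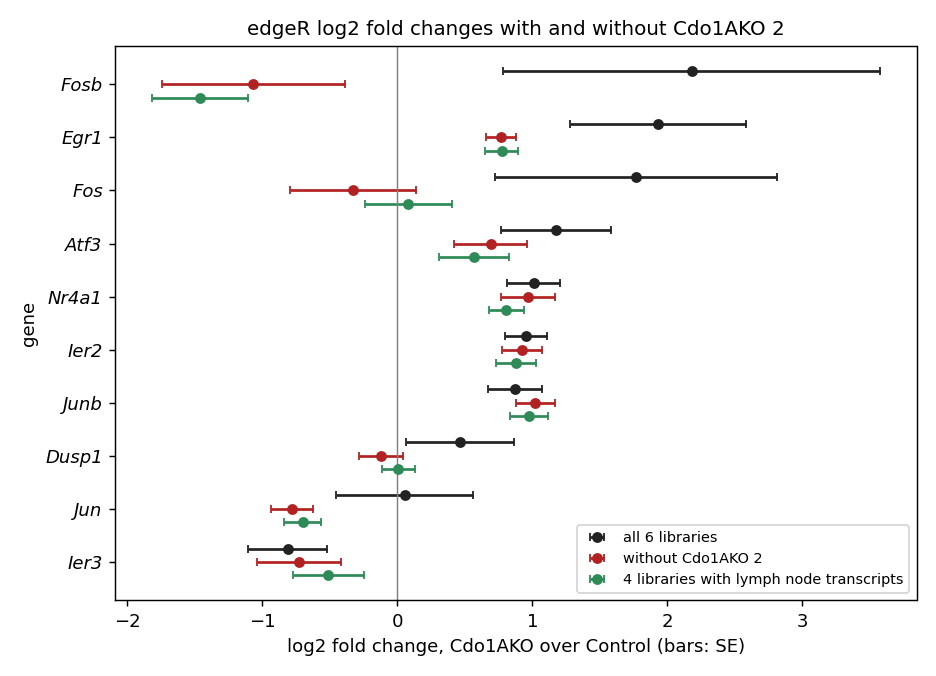
edgeR log2 fold change of Cdo1AKO over Control for each member, with bars of 1 standard error, for all 6 libraries, without Cdo1AKO 2, and for the 4 libraries with lymph node transcripts. Fosb, Fos, Jun and Dusp1 turn sign without Cdo1AKO 2, whereas Nr4a1, Ier2 and Junb stay between 0.81 and 1.02.

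Within Cdo1AKO, library 2 exceeded the mean of libraries 1 and 3 by 26.7 times for Fosb, 10.9 times for Fos, 4.73 times for Egr1, 3.35 times for Jun, 2.51 times for Dusp1 and 2.2 times for Atf3. Across all tested genes the median of this ratio was 1.01. Cdo1AKO 2 had few lymph node transcripts and Cdo1AKO 1 and 3 had many. The median for marker lists was 2.85 for fibroblasts, 2.14 for endothelium, 1.69 for pericytes and 1.67 for adipocytes. It was 2.42 for mitochondrially encoded mRNAs and 1.23 to 1.44 for macrophages, skeletal muscle and Schwann cells. Lower medians were 0.844 for neutrophils, 0.0477 for epithelium, 0.0137 for T cells and 0.00846 for B cells. The part of lymph node content in the members' ratios was not tested. A ratio as high as that of Fosb was reached by 3 genes, itself included, and one as high as that of Fos by 23 genes (0.138%). The ratio of Egr1 was reached by 169 genes (1.02%), that of Jun by 428 (2.57%), that of Dusp1 by 967 (5.82%) and that of Atf3 by 1414 (8.51%). For Nr4a1 and Ier2 the ratio was 1.09 and 1.06, and for Ier3 and Junb it was 0.840 and 0.703. The 10 genes together made up 327, 746 and 277 CPM in Cdo1AKO 1 to 3, against 281, 246 and 253 CPM in Control 1 to 3. Cdo1AKO 2 was the highest of all 6 libraries for 7 members, and for 31.7% of all tested genes. The seventh was Nr4a1, by a small margin over Cdo1AKO 1.

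**Figure D4:**
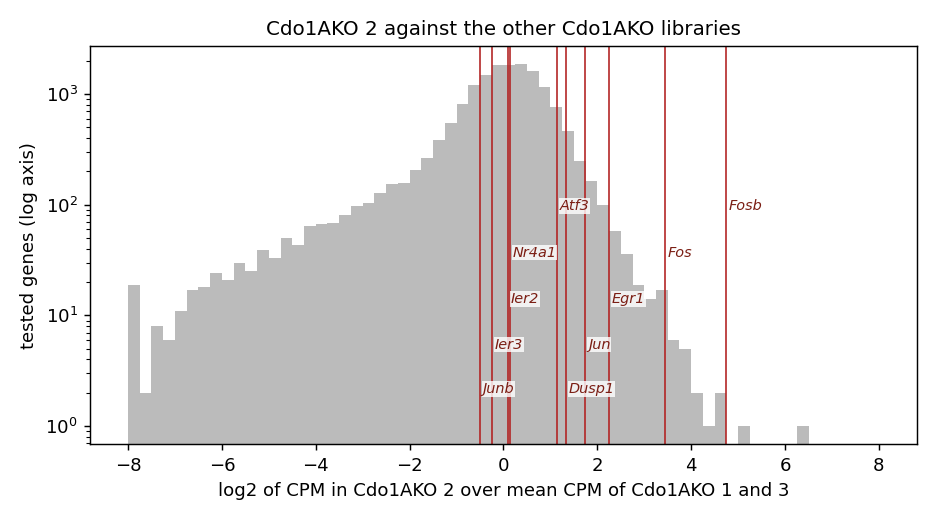
Histogram of tested genes (log axis) by the log2 ratio of CPM in Cdo1AKO 2 to the mean CPM of Cdo1AKO 1 and 3, with the 10 members marked by lines; genes without a count in Cdo1AKO 2 or in both others are left out, and ratios beyond the axis are drawn in the end bins. Fosb and Fos sit in the far right tail, and Junb, Ier3, Ier2 and Nr4a1 sit near the centre.

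The 4 libraries that share lymph node transcripts, Cdo1AKO 1 and 3 against Control 2 and 3, were also tested alone with edgeR. In this subset Junb (log2 fold change 0.97 ± 0.14), Ier2 (0.88 ± 0.15), Nr4a1 (0.81 ± 0.13) and Egr1 (0.77 ± 0.12) rose, where 7.65% of tested genes did. Fosb (-1.46 ± 0.36) and Jun (-0.70 ± 0.14) fell, where 7.7% did, and 15.3% were called in all. The edgeR adjusted p, the lowest of the 17 settings for Junb, Egr1, Fosb and Jun, was 0.00766 for Junb, 0.0118 for Ier2, 0.0105 for both Nr4a1 and Egr1, 0.0361 for Fosb and 0.0194 for Jun, each from 2 libraries per group. Over all 17 settings the highest adjusted p was 0.937 for Junb and Egr1, 1 for Jun and 0.984 for Fosb. The closely alike pair of Cdo1AKO 1 and 3 makes up the whole Cdo1AKO side of this subset. With all 6 libraries and lymph node content as a term, Junb, Nr4a1 and Ier2 rose (edgeR adjusted p = 0.0361, 0.0346 and 0.0286), where 2.26% of tested genes did, 1.87% fell and 4.13% were called in all. T cell transcripts also moved with this comparison. Over 14 markers of T cells and natural killer cells the summed level was 1037, 22.6 and 1060 CPM in Cdo1AKO 1 to 3, against 21.5, 412 and 238 CPM in Control 1 to 3. Cd3d had 70.0, 0.772 and 72.3 CPM, against 0.798, 24.6 and 14.7 CPM. In Cdo1AKO 2 these markers were near the lowest level. Of the members called in the subset, Egr1, Fosb and Jun were higher in Cdo1AKO 2 than in Cdo1AKO 1 and 3. Nr4a1 and Ier2 were near the same level there. Junb was lower there, at 47.3 CPM against 73.0 and 61.6 CPM in Cdo1AKO 1 and 3. The part of T cells in the values of these genes was not tested.

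Other cell types were measured beside the genes that peaked in Cdo1AKO 2. In that library 9 of 10 endothelial markers had their highest value of the 6 libraries, where 31.7% of all tested genes did. The endothelial markers summed to 1129, 2399 and 1070 CPM in Cdo1AKO 1 to 3, against 1489, 1158 and 1356 CPM in Control 1 to 3. Of 12 macrophage markers 9 were highest there (964, 1052 and 1015 CPM, against 740, 850 and 776 CPM). Of 10 fibroblast and progenitor markers 6 were (2318, 6082 and 2276 CPM, against 3074, 2177 and 2524 CPM). Of 11 tested neutrophil and mast cell markers 3 were highest there (the sum of all 12 was 65.2, 102 and 66.2 CPM, against 45.7, 80.8 and 71.7 CPM). Among them S100a8, picked after its values were seen, had 1.6, 16.1 and 1.92 CPM, against 2.15, 2.35 and 1.98 CPM, and S100a9, Cxcr2 and Retnlg had no count in at least 1 library. Pericyte and smooth muscle markers, 7 of 9 highest in Cdo1AKO 2, summed to 1029, 1599 and 981 CPM, against 830, 642 and 734 CPM, and skeletal muscle markers to 141, 207 and 115 CPM, against 121, 46.2 and 75.5 CPM, with Ckm, Myh4, Myh7 and Tnnc2 at 0 in at least 1 library. Adipocyte markers, 4 of 14 highest in Cdo1AKO 2, summed to 26793, 55228 and 28056 CPM, against 65464, 43330 and 51693 CPM. Schwann cell markers, 2 of 10 highest there, summed to 296, 419 and 302 CPM, against 495, 378 and 449 CPM. Of 14 tested B cell and lymph node stroma markers 1 was highest there, and of 14 T cell and natural killer cell markers 0. Of 4 tested skeletal muscle markers 2 were, and of 2 tested epithelial markers 0. Epithelial markers were near absent, at 0.515 to 5.32 CPM against 2.39 to 3.27 CPM, with Krt5, Krt8, Krt14, Epcam and milk protein genes at 0 in at least 1 library. Markers also differed between the groups as a whole. Of 12 macrophage markers 11 had positive log2 fold changes (median 0.44), where 56.0% of tested genes did. Of the 12, 4 stood higher in all Cdo1AKO libraries than in every Control library, where 8.87% of tested genes did. Of 9 pericyte and smooth muscle markers 7 were positive (median 0.52) and 2 stood higher in this way. The 4 tested skeletal muscle markers were positive (median 0.99), and 2 stood higher in this way. Of 14 T cell and natural killer cell markers 13 were positive (median 1.70) and 0 stood higher in this way. On the lower side the groups did not overlap for 9.73% of tested genes. They did not for 7 of 10 Schwann cell and nerve markers (median log2 fold change -1.12) and for 6 of 14 adipocyte markers (median -0.49). In bulk tissue fewer cells of a type and less RNA per cell cannot be told apart, and the part of any of these in the early gene values was not tested.

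Genes read as signs of handling were measured in the same way. Of 15 heat shock genes, chaperones that warming or damage can induce, 0 passed edgeR and 0 had an unadjusted p under 0.05. Their median log2 fold change was -0.05. In Cdo1AKO 2, 7 of the 15 had their highest value of the 6 libraries, as did 31.7% of all tested genes. The median ratio of Cdo1AKO 2 to the mean of Cdo1AKO 1 and 3 was 1.38 for them, against 1.01 over all tested genes. Together they summed to 2715, 3769 and 2698 CPM in Cdo1AKO 1 to 3, against 3421, 3303 and 3259 CPM in Control 1 to 3. The small heat shock protein gene Cryab had 115, 287 and 104 CPM in Cdo1AKO 1 to 3, against 80.0, 90.7 and 89.3 CPM in Control 1 to 3 (log2 fold change 0.96 ± 0.41 SE). The classical inducible chaperone gene Hspa1a had 2.5, 2.44 and 2.47 CPM, against 1.78, 1.71 and 1.55 CPM, which is higher in all 3 Cdo1AKO libraries than in every Control library and alike in Cdo1AKO 1, 2 and 3. Its log2 fold change was 0.55 ± 0.26 (SE; edgeR adjusted p = 0.528). The near-identical copy Hspa1b had 5.35, 5.79 and 3.02 CPM, against 5.46, 4.33 and 4.99 CPM, and counting may split reads between both copies. The mitochondrial chaperonin Hspd1 had -0.52 ± 0.27 (log2 fold change, SE). Mitochondrially encoded mRNAs summed to 21273, 50491 and 21988 CPM, against 39004, 30621 and 39703 CPM, and 9 of 13 were highest in Cdo1AKO 2. Of these, mt-Co3 had a log2 fold change of -0.97 ± 0.39, mt-Nd3 -0.88 ± 0.38 and mt-Atp6 -0.67 ± 0.48 (SE). Tissue handling was not recorded in the sources, and its part in the early gene values was not tested.

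Relatives of the members were read from lists of the same pathway. Among 12 other AP-1 and small Maf genes the median log2 fold change was -0.02, 0 passed edgeR, and 3 were positive. The dendritic and T cell factor Batf3 had 21.6, 5.02 and 20.1 CPM in Cdo1AKO 1 to 3, against 2.64, 6.21 and 4.29 CPM in Control 1 to 3 (log2 fold change 1.83 ± 0.60 SE). Mafg had -0.50 ± 0.17 and Atf4, the effector of the integrated stress response, -0.32 ± 0.16 (log2 fold change, SE). Jund, the least inducible Jun gene, had 53.5, 68.3 and 52.6 CPM, against 57.5, 64.4 and 54.6 CPM.

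Of 20 tested early transcription factors outside the members, 11 were positive, the median was 0.04 and 0 passed. Egr2, a sister of Egr1, had 9.55, 9.26 and 9.06 CPM in Cdo1AKO 1 to 3, against 2.52, 5.14 and 4.77 CPM in Control 1 to 3, a level shared by all Cdo1AKO libraries as for Nr4a1. Its log2 fold change was 1.16 ± 0.31 (SE; edgeR adjusted p = 0.345). The clock-linked repressor Bhlhe40 had -0.51 ± 0.21 and the HLH inhibitor Id2 1.35 ± 0.57 (log2 fold change, SE). Egr3, chosen after its values were seen, was instead low in the 2 libraries without lymph node transcripts, with 29.0, 3.09 and 25.4 CPM, against 2.33, 19.8 and 11.2 CPM.

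Of 29 tested early effectors, 22 were positive, the median was 0.34 and 0 passed. The growth inhibitors Tob1 and Btg2 differed in direction, with log2 fold changes of -0.72 ± 0.20 and 0.49 ± 0.15 (SE). Ppp1r15a, which restores translation after stress, had 0.37 ± 0.15. Cyr61, a matricellular gene induced through serum response factor, and Cdkn1a, a cell cycle inhibitor, were picked after their values were seen for their likeness to Fos. Cyr61 had 27.4, 398 and 25.4 CPM in Cdo1AKO 1 to 3, against 93.8, 35.5 and 64.2 CPM in Control 1 to 3. Cdkn1a had 51.0, 309 and 53.0 CPM, against 83.8, 42.0 and 57.6 CPM. Both were high in Cdo1AKO 2 alone, whereas 8 of the 29 tested genes of their list were highest in that library, with a median ratio to the mean of Cdo1AKO 1 and 3 of 1.02, against 31.7% and 1.01 over all tested genes.

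MAP kinase phosphatases and feedback inhibitors (15 tested) had 11 positive members, a median of 0.32 and 0 passing edgeR. The X-linked phosphatase gene Dusp9 had 15.9, 19.6 and 16.6 CPM in Cdo1AKO 1 to 3, against 10.1, 10.6 and 9.60 CPM in Control 1 to 3. It had log2 fold change 0.78 ± 0.17 (SE; edgeR adjusted p = 0.309) and passed DESeq2 (adjusted p = 0.0405), with a range of 0.0288 to 0.937 over the alternative settings. Dusp16 had -0.85 ± 0.20 and Dusp4 -0.93 ± 0.26 (log2 fold change, SE). Of 25 kinases and factors that switch the class on, 18 were positive, the median was 0.09 and 0 passed. Mapk7, which encodes ERK5, had 0.55 ± 0.18, the ELK factor Elk3 0.51 ± 0.19 and the histone kinase gene Rps6ka5 -0.47 ± 0.18 (log2 fold change, SE).

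Per kilobase of listed gene length, the members ranked in Cdo1AKO as Dusp1 (38.2 ± 22.2 CPM per kb, SD, n = 3), Ier2 (32.6 ± 4.23), Junb (26.4 ± 5.59), Jun (22.3 ± 17), Fos (17.8 ± 23.7), Egr1 (16 ± 15.4), Nr4a1 (7.21 ± 0.428), Ier3 (3.97 ± 0.445), Atf3 (3.36 ± 1.67) and Fosb (2.41 ± 3.73). In Control the order was Dusp1 (27.7 ± 4.64), Jun (21.5 ± 2.05), Ier2 (16.8 ± 1.13), Junb (14.4 ± 1.7), Ier3 (6.98 ± 2.15), Fos (5.24 ± 2.63), Egr1 (4.2 ± 0.126), Nr4a1 (3.58 ± 0.705), Atf3 (1.49 ± 0.335) and Fosb (0.528 ± 0.304). In Cdo1AKO the intervals of mean ± SD overlapped between all neighbours in this order apart from Nr4a1 and Ier3. In Control they overlapped for Dusp1 and Jun, Ier2 and Junb, Ier3 and Fos, Fos and Egr1, and Egr1 and Nr4a1, and not for the other neighbours.

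By the root mean square difference of centred log2 CPM over the 6 libraries, genes most like the mean profile of the members, among 11187 others, included Mmp15 (0.0366), App (0.0542), Adamts2 (0.0662), Ctsd (0.0695) and Htra1 (0.0766). Each of these was high in Cdo1AKO 2 alone: App, the amyloid precursor protein gene, had 614, 1572 and 581 CPM in Cdo1AKO 1 to 3, against 502, 546 and 535 CPM in Control 1 to 3. The members themselves lay further from that mean, from 0.218 for Dusp1 to 1.26 for Fosb.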

How the data were processed

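TRIzol extraction and NEBNext Ultra library preparation are stated per the labels' protocols. The submitters' processing notes name mm10, DESeq2 1.20.0, featureCounts 1.5.0-p3 and HISAT2 2.0.5 but assign them no step. Whether counting used strand is unknown, so a gene and an overlapping or antisense partner may share reads. The authors deposited raw counts per gene and FPKM for each library, per the file headers, with their own log2 fold changes and p-values; FPKM was not used. In 19 rows, Fosb among them, the deposited p-value is missing and the adjusted one is written as 1; these were treated as missing. Groups and library numbers came from the titles, and the WT columns were matched to Control by the genotype field.

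Of 54532 genes, 16623 passed filterByExpr and were tested with edgeR 4.0.16 in R 4.3.3 (TMM factors, quasi-likelihood test, no term but group) with Benjamini-Hochberg adjustment over all of them and a threshold of 0.05. CPM uses TMM-scaled library sizes. Errors are the SE of the log2 fold change, or the SD between a group's 3 libraries. The fit was tested on simulated counts. Alternatives were other scalings and filters, DESeq2 1.42.0, limma-voom (limma 3.58.1), robust estimation, a replicate block, each library left out, a term for libraries whose median CPM of B cell and lymph node stroma markers was above 5, and those 4 libraries alone. That term comes from transcript content and not from a label. Named genes were the members, Cdo1, the 3 of each pathway or handling list with the smallest p, and the 6 genes of mean CPM of at least 5 most like the members' profile (prior count 2), of which 1 is not reported here. Jund, Hspa1b, Cd3d and S100a8 were named after their values were seen. The members and lists were chosen with earlier results of these data known. No label says that libraries are separate animals; p-values then reflect only library-to-library spread, which may be technical. Intervals cover counting error only.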

Additional observations from a re-analysis of the deposited data

How the results depend on the processing

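Across 17 alternative settings, counts of calls moved with the tool and with lymph node content. Over all genes, 0 passed by edgeR (1724 at an unadjusted p under 0.05), 274 by DESeq2, 686 with the lymph node term and 2617 in the 4 libraries with lymph node transcripts. Of the 10 members, 0 passed by edgeR, 2 by DESeq2, 3 with the lymph node term and 6 in the 4 libraries; the cause was not tested. Fosb has no adjusted p by DESeq2. With each library left out, 0 genes and 0 members passed in every fit. In these fits 6 members had groups that did not overlap, where 10.6% to 14.6% of tested genes were higher and 11.5% to 16.4% lower in this way. Without Cdo1AKO 2 it was 7 members, where 28.3% of tested genes were higher and 26.5% lower. With all 6 libraries these shares were 8.87% and 9.73%, so groups separated more often with a library left out. The 6 members apart with all 6 libraries had to stay apart in these fits, save for rescaling. These counts therefore do not test their separation. With library totals alone 5 members had such groups, where 10.7% of tested genes were higher and 8.98% lower (alternatives chosen after seeing the data). With libraries left out the log2 fold change ran from -0.33 to 2.25 for Fos, -1.07 to 2.73 for Fosb, -0.78 to 0.38 for Jun and -0.12 to 0.72 for Dusp1, each turning sign without Cdo1AKO 2. Jun also turned with limma-voom (-0.20), the replicate block (-0.22), the lymph node term (-0.20) and the 4 libraries (-0.70), as did Fosb in the 4 libraries (-1.46). Atf3, Egr1, Nr4a1, Ier2, Junb and Ier3 kept their direction in all 17. Their groups did not overlap with all 6 libraries, so fits on fewer libraries could hardly turn the sign and do not test it.

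Whether equal library numbers pair the samples is not known. Deviations from the group means correlated at -0.66, -0.67 and 0.45 for numbers 1, 2 and 3. Of the 6 libraries, 0 correlated best with their own number. Lymph node content also set libraries apart within each group, so these correlations cannot decide the question. The replicate block gave 0 calls. Depth limits Fosb, with 19 counts in its lowest library. Fits that leave out 1 library of a group keep 2 there.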
